A study of Mus musculus with 13 samples.

Results

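The retinoblastoma pocket proteins and the E2F factors they bind were followed in ovarian tumors and normal ovaries of the mouse. The 10 genes described are the rows of the deposited expression table with the gene names Rb1, Rbl1, Rbl2, E2f1, E2f2, E2f3, E2f4, E2f7, E2f8 and Tfdp1, out of 53465 genes in the table. They were taken by name, with earlier results of these data known. RNA was sequenced from bulk tissue of 3 ovaries of wild-type (WT) C57BL/6 mice and of 10 MP EPO-GEMM tumors. EPO-GEMM tumors arise in situ after plasmids are injected into the ovary and delivered by electrical pulses. The MP plasmids carried CRISPR-Cas9 with a guide against Trp53 and a transposon that overexpresses MYC, and Rb1 was not targeted. The mice that were electroporated were WT C57BL/6 females of 8 to 12 wk, the method does not choose a cell type within the ovary and fallopian tube, the tumors were oligoclonal by the study's account, and neither group was treated with a drug. The labels carry the same age text for the WT ovaries. Whether any tissue was pooled is not given in the sources used here. Each library was taken as 1 sample, so P values measure the spread between these samples.

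The pocket proteins RB (Rb1), p107 (Rbl1) and p130 (Rbl2) hold E2F transcription factors on the promoters of genes needed for DNA replication and mitosis and keep those genes silent until cyclin-dependent kinases phosphorylate the pocket protein. E2F1, E2F2 and E2F3 are activators bound mainly by RB, E2F4 is a repressor bound mainly by p107 and p130, E2F7 and E2F8 are atypical repressors that bind DNA without a DP partner, and DP1 (Tfdp1) is the dimerization partner of the classical E2Fs. In a cell that leaves the cycle, p130 and E2F4 join the MuvB proteins in the DREAM complex. p107 replaces p130 as cells divide, and its gene is itself an E2F target. MYC, the oncogene of the MP tumors, activates cyclin and E2F genes through E-box sites.

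The members are themselves placed under E2F control in general knowledge of the pathway, so the letters of their promoters are shown. RefSeq windows of GRCm38.p6, from 250 bases before to 50 bases after a start site, were held for 8 of the 10 members, with 11 windows in all. Both strands were searched for the E2F letters TTTCCCGC, TTTCGCGC, TTTGCCGC and TTTGGCGC and for the E-box CACGTG, and no 2 matches overlapped. The 2 windows of Tfdp1 overlap and share 1 E2F match. E2F letters stood in the windows of 5 of the 8 members, and 2.6% of the 27025 genes with a window held them. By window this was 6 of 11 beside 2.26% of 32851. The E-box stood in the windows of 2 of the 8 members, beside 8.09% of genes, or 2 of 11 windows beside 7.15% of all windows. The stretches below run 5′ to 3′ on the strand of the gene, with the matched letters in capitals, and the whole windows of Rbl1 and Rbl2 are shown because the ratio of these related genes differed between tumors and ovaries. The Rbl1 window holds E2F letters, and the Rbl2 window holds none of the letters searched. Any link between these letters and the ratio was not tested.
Rbl1, E2F letters (chr2:157204525-157204572, minus strand): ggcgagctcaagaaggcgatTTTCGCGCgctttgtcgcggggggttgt
E2f2, E2F letters (chr4:136172293-136172323, plus strand): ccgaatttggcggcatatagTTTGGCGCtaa
E2f3, E2F letters (chr13:29986047-29986094, minus strand): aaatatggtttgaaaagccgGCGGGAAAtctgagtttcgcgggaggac
E2f7, E2F letters (chr10:110745221-110745268, plus strand): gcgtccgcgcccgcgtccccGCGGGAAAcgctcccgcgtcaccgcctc
Tfdp1, E2F letters (chr8:13338688-13338735, plus strand): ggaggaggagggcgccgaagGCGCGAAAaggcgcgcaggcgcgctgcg
E2f3, E-box letters (chr13:29984390-29984435, minus strand): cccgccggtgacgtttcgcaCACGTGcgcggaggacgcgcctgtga
Tfdp1, E-box letters (chr8:13338501-13338545, plus strand): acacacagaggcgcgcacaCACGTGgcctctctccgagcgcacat
Rbl1, whole window (chr2:157204485-157204784, minus strand): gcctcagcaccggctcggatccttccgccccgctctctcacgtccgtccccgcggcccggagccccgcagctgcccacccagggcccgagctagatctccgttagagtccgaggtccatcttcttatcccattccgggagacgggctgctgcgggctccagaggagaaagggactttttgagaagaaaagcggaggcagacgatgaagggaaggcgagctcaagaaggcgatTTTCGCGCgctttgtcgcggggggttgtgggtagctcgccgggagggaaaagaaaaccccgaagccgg
Rbl2, whole window (chr8:91069807-91070106, plus strand): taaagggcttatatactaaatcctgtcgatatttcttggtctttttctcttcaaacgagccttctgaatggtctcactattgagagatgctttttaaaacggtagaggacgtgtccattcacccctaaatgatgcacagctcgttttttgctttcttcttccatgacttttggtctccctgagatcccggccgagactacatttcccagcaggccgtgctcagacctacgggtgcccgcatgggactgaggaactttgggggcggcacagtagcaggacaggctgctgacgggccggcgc
The windows of E2f1, E2f8 and Rbl2 held neither motif. The only E2f1 window is set on a RefSeq start 466 bases inside the 5′ end that the table gives the gene, so the bases upstream of that end were not searched. A match is a run of letters and no evidence of binding.

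Library depth, worked back from the table, ran from 31445004 to 64013840 reads in WT ovaries and from 3892690 to 19906507 in MP tumors. Library names carry 1 of 3 numbers, whose meaning the labels do not give, and the sets they form are called projects here. Project 1 holds the 3 WT ovaries and MP tumors 1, 2 and 3, project 2 holds MP tumors 4, 5 and 6, and project 3 holds MP tumors 7, 8, 9 and 10, so condition and project cannot be told apart outside project 1. In MP tumor 2 the 10 most abundant genes took 55.1% of all TPM, against 7.92 to 20.6% in the other libraries. Mitochondrial genes took 6.32 to 6.98% of TPM in WT ovaries, 15.4% in MP tumor 2 and 0.883 to 5.57% in the other tumors, and the part of this in the results was not tested. Trp53, the edited gene, stood at 80.7, 85.04 and 85.4 TPM (a share of the library's transcripts corrected for gene length) in WT ovaries. In MP tumors 1 to 9 it stood at 4.30, 12.2, 6.29, 14.4, 26.0, 13.5, 9.39, 22.5 and 24.7 TPM, and in MP tumor 10 at 187 TPM. An insertion or deletion need not lower RNA, so this level is no check of the edit. Without MP tumor 10, the log2 fold change of Rb1 was -2.03 (adjusted P = 0.0204 by limma) and Rbl2 had an adjusted P of 0.0345. Of the ovarian cell markers, 6 of 6 granulosa and 7 of 8 oocyte genes fell in the tumors, and their summed levels lay below every WT ovary in 10 of 10 tumors. The summed level of 6 epithelial markers was 237 to 267 TPM in WT ovaries and 5.67 to 1152 TPM in tumors. It lay below every WT ovary in 8 of 10 and above in 2. Singly, Krt18 lay above all ovaries in 4 tumors, Krt8 in 3 and Krt19 in 2, while Krt7, Epcam and Cdh1 lay below in all 10. The lowest tumor values of Krt19 and of Cdh1 were 0. The part of these marker differences in the values below was not tested.

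Members were tested with limma on log2(TPM + 1), with Benjamini-Hochberg adjustment over 17277 genes, those reaching 1 TPM or more in 3 or more libraries. All 10 members passed that filter. On this scale 2 of 10 members fell in MP tumors, Rb1 and Rbl2, and 0 rose. Over all genes tested, 14.3% were called lower and 2.51% higher, so the count of members called lower lies near the background. At an unadjusted P value under 0.05, 1 member was higher and 2 were lower, beside 5.63% and 27.4% of all genes, and limma-voom on reads called 4 higher and 2 lower, beside 16% and 17.5% of all genes. The median log2 fold change of all genes was -0.58 in the deposited TPM and -0.02 after median-of-ratios scaling, which sets each library by its typical gene. Of the genes called, 14.95% were higher in the first case and 40.6% in the second. A member's change is therefore also given relative to the median of all genes.

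Rb1 (ENSMUSG00000022105, chr14:73183673-73325822, minus strand) encodes RB, the founding pocket protein and tumor suppressor. It was at 24.0, 24.5 and 20.3 TPM in WT ovaries, and MP tumors ran from 1.62 TPM at the lowest through a median of 5.59 to 13.3 TPM at the highest. All 10 tumors lay below all 3 ovaries, with MP tumors 1, 2 and 3 lowest at 1.62 to 2.10 TPM. After median-of-ratios scaling that order among tumors changed, with MP tumor 2 at 6.25 and MP tumor 7 at 4.07 scaled TPM. The log2 fold change was -1.94 ± 0.55 (SE, adjusted P = 0.0268 by limma, n = 3 and 10), or -1.36 relative to the median of all genes. In bulk tissue, fewer cells that express a gene and less RNA per cell cannot be told apart. With any 1 WT ovary left out the call was lost, at log2 fold changes of -2.02 to -1.89 and adjusted P values of 0.0946 to 0.117, and the fold change within project 1 was -3.05 ± 0.23 (adjusted P = 3.28e-05) as deposited and -1.68 ± 0.28 (adjusted P = 0.00266) after median-of-ratios scaling. Exons of Rcbtb2 and Lpar6 on the opposite strand cover 8.11% and 6.78% of the exon bases of Rb1, and whether counting used strand is not given in the sources used here.

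Rbl2 (ENSMUSG00000031666, chr8:91070057-91123844, plus strand) encodes p130, the pocket protein of resting cells. It was at 39.6, 36.8 and 41.2 TPM in WT ovaries, the most abundant pocket gene there, and tumors ran from 2.24 through a median of 11.2 to 24.0 TPM. Again all 10 tumors lay below all ovaries, and MP tumors 1, 2 and 3 were lowest at 2.24 to 3.96 TPM. TPM of all 10 tumors lay below all ovaries in 16.4% of genes tested and above in 3.02%. The log2 fold change was -1.90 ± 0.61 (SE, adjusted P = 0.0457 by limma), or -1.32 relative to all genes. This call was close to the threshold: it was lost without any 1 WT ovary (-1.94 to -1.86, adjusted P 0.139 to 0.163) and without MP tumor 1, 3, 6, 7 or 8 (-1.94 to -1.75, adjusted P 0.0584 to 0.0654), and the fold change within project 1 was -3.28 ± 0.27 (adjusted P = 4.51e-05) as deposited and -1.85 ± 0.17 (adjusted P = 0.000256) after scaling. Exons of Gm45464 and Aktip on the opposite strand cover 11.8% and 9.17% of its exon bases.

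Rbl1 (ENSMUSG00000027641, chr2:157145893-157204534, minus strand) encodes p107, the pocket protein of dividing cells. It was at 16.7, 19.2 and 12.9 TPM in WT ovaries and ran from 7.93 through a median of 12.4 to 25.8 TPM in tumors. The groups overlapped, with 1 tumor above and 5 below all ovaries. Its log2 fold change was -0.24 ± 0.40 (adjusted P = 0.686 by limma) and turned positive, to 0.44 ± 0.38 (adjusted P = 0.426), after median-of-ratios scaling. Within project 1 it was -0.42 ± 0.36 (adjusted P = 0.333) as deposited and 1.09 ± 0.30 (adjusted P = 0.0196) with that scaling.

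Ratios within a library do not depend on its scaling, and here Rbl1 held a larger share of the pocket gene RNA in every tumor than in any ovary. Rbl1 made up 20.8, 23.8 and 17.3% of the summed TPM of the 3 pocket genes in WT ovaries, and from 32.2% through a median of 40.6% to 77.0% in tumors. All 10 tumors lay above all ovaries, and MP tumors 1, 2 and 3 held the highest shares, at 66.3, 65.3 and 77.0%. The share of Rb1 was 27.3 to 30.5% in ovaries and 8.79 to 27.3% in tumors, below all ovaries in 9 of 10. The share of Rbl2 was 45.7 to 55.4% in ovaries and 14.2 to 54.3% in tumors, below in 8 of 10. Put as a ratio, Rbl1 over Rbl2 was 0.42, 0.52 and 0.31 in ovaries and 0.59 to 5.43 in tumors, while Rb1 over Rbl2 overlapped at 0.49 to 0.67 and 0.25 to 0.88. These shares and ratios, here and below, are a description without a test. How many other gene pairs separate the groups in this way was not worked out.

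**Figure D1:**
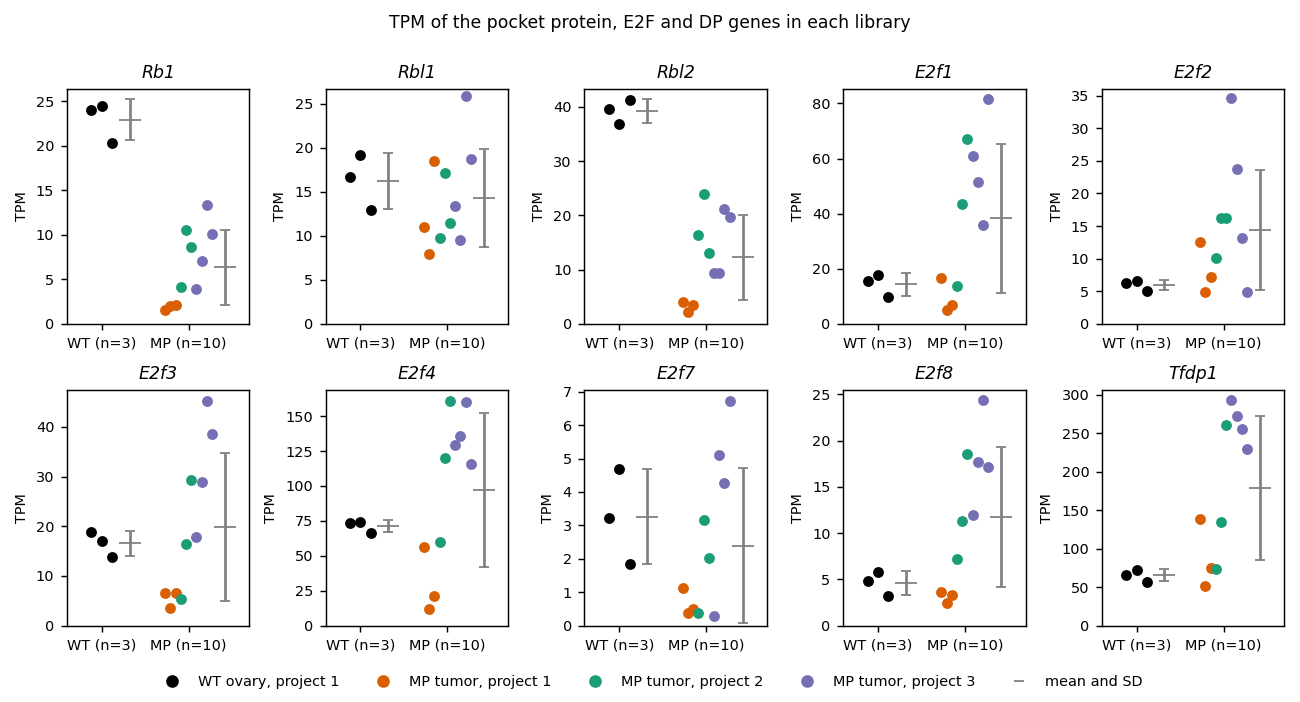
TPM (linear axes from 0, a scale of its own in each panel) of the 10 genes in 3 WT ovaries and 10 MP tumors, each point a library coloured by library project, with the mean and SD of each group in grey. All tumors lie below all ovaries for Rb1 and Rbl2, and the tumors of project 1 have the lowest TPM for both.

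Among the activators, E2f1 (ENSMUSG00000027490, chr2:154559407-154569892, minus strand), the E2F that can drive cells into S phase or into apoptosis, was at 15.6, 17.8 and 9.79 TPM in WT ovaries. Tumors ran from 5.08 through a median of 39.6 to 81.5 TPM, with 6 above and 2 below all ovaries. Those below were MP tumors 2 and 3, and the tumors of project 3 were at 35.8 to 81.5 TPM. The mean was 2.66 times that of ovaries, but the spread among tumors was wide and the log2 fold change was 0.93 ± 0.74 (SE, adjusted P = 0.385 by limma). After median-of-ratios scaling all 10 tumors, at 13.4 to 63.4 scaled TPM, lay above the ovaries at 6.87 to 12.1, and E2f1 rose by 1.59 ± 0.48 on the log2 scale (adjusted P = 0.0342). Within project 1 its direction depended on the scaling, at -0.67 ± 0.45 (adjusted P = 0.225) as deposited and 0.80 ± 0.32 (adjusted P = 0.0702) scaled.

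E2f2 (ENSMUSG00000018983, chr4:136172394-136196057, plus strand), an activator with roles in blood cell proliferation, was at 6.30, 6.54 and 5.02 TPM in WT ovaries. It ran from 4.87 through a median of 12.8 to 34.6 TPM in tumors, above all ovaries in 8 of 10. MP tumors 2 and 10 lay just below the lowest ovary, at 4.94 and 4.87 TPM. Their Poisson 95% intervals, 4.14 to 5.85 and 3.43 to 6.72 TPM for counting error only, reach into the ovaries' range. After median-of-ratios scaling MP tumor 2 lay above all ovaries, at 15.6 scaled TPM, and MP tumor 10 still below. The log2 fold change was 0.93 ± 0.53 (adjusted P = 0.225 by limma) as deposited and 1.55 ± 0.47 (adjusted P = 0.0350) scaled. Within project 1 these values were 0.33 ± 0.34 (adjusted P = 0.416) and 1.72 ± 0.21 (adjusted P = 0.000667). E2f3 (ENSMUSG00000016477, chr13:29906575-29986063, minus strand), an activator with 2 promoters that give a long and a short protein, was at 18.8, 17.02 and 13.8 TPM in ovaries. It ran from 3.61 through 17.1 to 45.3 TPM in tumors, with 4 above and 4 below all ovaries. Over all libraries E2f3 did not pass the test in either direction, at -0.15 ± 0.68 (adjusted P = 0.889) as deposited and 0.50 ± 0.43 (adjusted P = 0.427) scaled, so its sign turned with the scaling. It was called lower in the deposited TPM with project as a covariate (-1.44 ± 0.52, adjusted P = 0.0310) and within project 1 (-1.44 ± 0.30, adjusted P = 0.00379), where it was at 0.01 ± 0.19 (adjusted P = 0.956) after scaling. The covariate fit and the deposited project 1 fit share 1 estimate, because all WT ovaries are in project 1. The table has 1 row for E2f3 and does not separate its transcripts.

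E2f4 (ENSMUSG00000014859, chr8:105297663-105305370, plus strand), the repressor E2F of the DREAM complex, was the most abundant E2F gene described in every library. It was at 73.5, 74.4 and 66.7 TPM in WT ovaries and ran from 12.1 through a median of 118 to 161 TPM in tumors. No tumor fell within the ovaries' range: MP tumors 1 to 4 lay below it, at 56.6, 12.1, 20.9 and 60.0 TPM, and MP tumors 5 to 10 above it, at 116 to 161 TPM. The log2 fold change was 0.07 ± 0.68 (adjusted P = 0.947 by limma) as deposited and 0.78 ± 0.39 (adjusted P = 0.172) scaled, when 8 tumors lay above and 2 below all ovaries. Within project 1 E2f4 was lower as deposited, at -1.51 ± 0.53 (adjusted P = 0.0391), and at 0.07 ± 0.33 (adjusted P = 0.871) after scaling.

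Of the atypical repressors, E2f8 gained on E2f7 in every tumor. E2f7 (ENSMUSG00000020185, chr10:110745439-110787384, plus strand) was the lowest member in every library but MP tumor 10, where E2f2 was lower. It was at 3.23, 4.70 and 1.85 TPM in WT ovaries and from 0.27 through 1.57 to 6.71 TPM in tumors. The lowest tumors, 4 and 7, rested on 6 reads each, and the Poisson 95% interval of MP tumor 7 was 0.10 to 0.60 TPM, for counting error only. Its log2 fold change was -0.58 ± 0.58 (adjusted P = 0.494 by limma), close to the median of all genes, and turned positive with quantile normalization (0.16) or removal of length trends (0.38). Within project 1 it was called lower as deposited (-1.32 ± 0.31, adjusted P = 0.00721) and was at -0.43 ± 0.28 (adjusted P = 0.224) after scaling. E2f8 (ENSMUSG00000046179, chr7:48866429-48881596, minus strand) was at 4.85, 5.78 and 3.21 TPM in ovaries and ran from 2.48 through 11.6 to 24.3 TPM in tumors, above all ovaries in 7 of 10. It did not pass as deposited, at 0.92 ± 0.61 (adjusted P = 0.300), and rose by 1.47 ± 0.36 (adjusted P = 0.0122) after scaling, when all 10 tumors lay above all ovaries, as they did for 9.63% of genes tested. Within project 1 its direction depended on the scaling, at -0.43 ± 0.26 (adjusted P = 0.187) as deposited and 0.85 ± 0.24 (adjusted P = 0.0223) scaled. Exons of Gm2788 on the opposite strand cover 11.2% of its exon bases. E2f8 over E2f7 was 1.502, 1.23 and 1.74 in ovaries and 2.55 to 43.3 in tumors, above all ovaries in 10 of 10, and the top of that range is MP tumor 7 with its 6 reads of E2f7.

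Tfdp1 (ENSMUSG00000038482, chr8:13338751-13378448, plus strand), which encodes the dimerization partner DP1, had the highest TPM of the members in each of the 10 tumors, whereas E2f4 had the highest in each of the 3 ovaries. Tfdp1 was at 66.2, 73.0 and 57.4 TPM in WT ovaries and ran from 51.5 through a median of 184 to 294 TPM in tumors. Of the tumors, 9 lay above all ovaries, and MP tumor 2 lay below. The log2 fold change was 1.21 ± 0.52 (SE, adjusted P = 0.118 by limma) as deposited, and without MP tumor 2 it was 1.38 ± 0.44 (adjusted P = 0.0471). After scaling, Tfdp1 rose by 1.92 ± 0.37 (adjusted P = 0.00256), with all 10 tumors above all ovaries, and within project 1 it rose by 1.91 ± 0.21 (adjusted P = 0.000439). Within project 1 as deposited it was at 0.31 ± 0.42 (adjusted P = 0.533). Tfdp1 over E2f4 was 0.90, 0.98 and 0.86 in ovaries and 1.12 to 4.25 in tumors, above all ovaries in 10 of 10. The share of other gene pairs that separate so was not worked out.

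**Figure D2:**
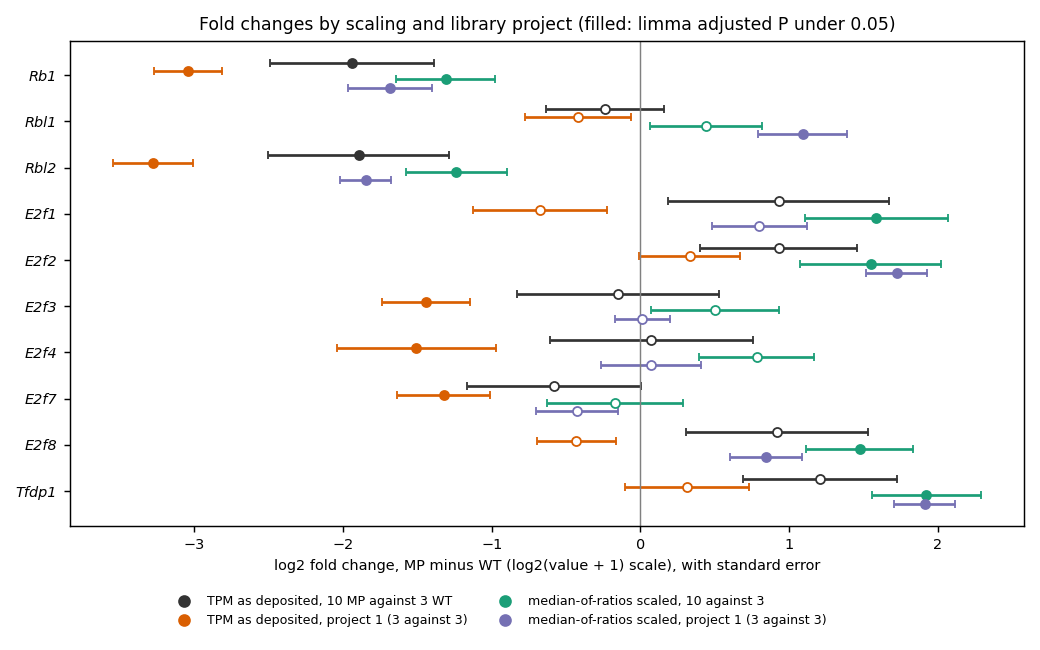
Log2 fold changes of MP tumors minus WT ovaries with standard errors from limma, for deposited and median-of-ratios scaled TPM, over all libraries (10 against 3) and within project 1 (3 against 3). Filled points have an adjusted P value under 0.05, and Rb1 and Rbl2 are filled and negative in all 4 fits.

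After median-of-ratios scaling, 4 of 10 members rose (E2f1, E2f2, E2f8 and Tfdp1) and 2 fell (Rb1 at -1.31 ± 0.33, adjusted P = 0.0149, and Rbl2 at -1.24 ± 0.34, adjusted P = 0.0210, by limma). With this scaling 7.48% of all genes were called higher and 10.9% lower. The members called higher were an activator pair, an atypical repressor and the shared partner, and both members called lower were pocket genes. Within project 1, the deposited TPM gave 0 members higher and 5 lower (Rb1, Rbl2, E2f3, E2f4 and E2f7), where 6.44% of all genes were called higher and 57.3% lower and the median of all genes was -1.19. The same 6 libraries after scaling gave 4 higher (Rbl1, E2f2, E2f8 and Tfdp1) and 2 lower (Rb1 and Rbl2), where 26.6% of all genes were called higher and 32.2% lower. Tumors of projects 2 and 3 against the 3 ovaries gave 3 higher (E2f1, E2f8 and Tfdp1) and 2 lower (Rb1 and Rbl2) in the deposited TPM, with 4.68% and 13.5% of all genes called. Rb1, Rbl2, E2f2 and Tfdp1 kept their direction in each of the 28 alternatives run, which share libraries and are not independent.

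The rank of a gene among the 17277 genes of its own library does not change with scaling. Rb1 stood between the 57.2 and 60.4 percentile in ovaries and between 35.3 and 49.4 in tumors, and Rbl2 between 70.3 and 74.0 and between 48.2 and 63.0. Both lay lower in all 10 tumors than in any ovary, as did 10.6% of genes tested. E2f1 stood between 42.3 and 52.6 in ovaries and between 59.5 and 85.1 in tumors. For E2f8 these ranges were 26.7 to 33.6 and 45.9 to 62.3, and for Tfdp1 80.7 to 84.4 and 88.9 to 97.2. These 3 lay higher in all 10 tumors than in any ovary, as did 12.5% of genes tested. E2f2 lay higher in 9 tumors, E2f3 and E2f4 in 8 and Rbl1 in 7. E2f7 overlapped, at 19.8 to 30.9 in ovaries and 12.95 to 40.5 in tumors.

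**Figure D3:**
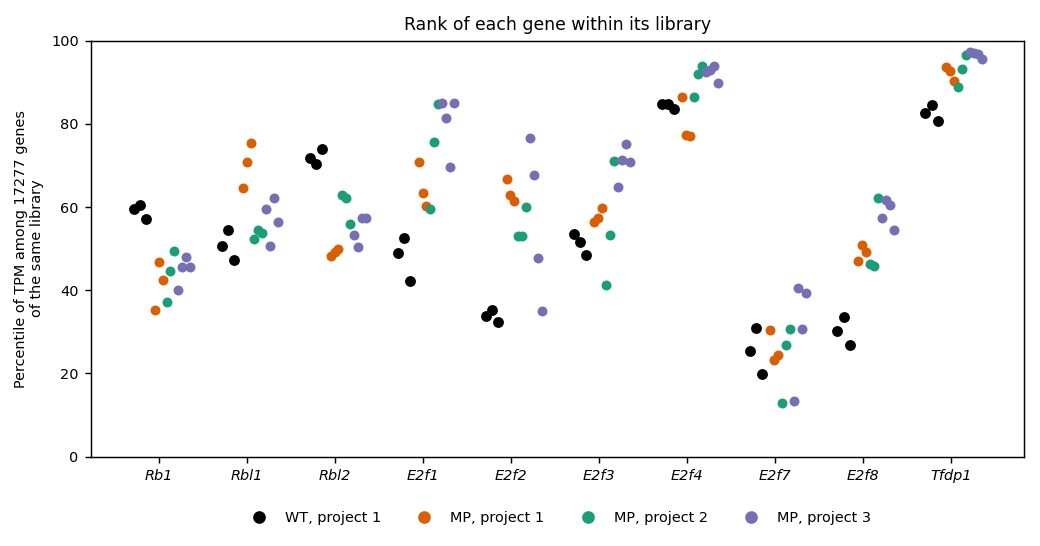
Percentile of each member's TPM among the 17277 genes tested in the same library, with each point a library coloured by group and project. Rb1 and Rbl2 rank lower, and E2f1, E2f8 and Tfdp1 higher, in all 10 MP tumors than in any WT ovary.

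Within the summed TPM of the 6 E2F genes, E2f4 held 60.1, 58.9 and 66.5% in WT ovaries and 42.3 to 62.1% in tumors, below all ovaries in 9 of 10. E2f1 held 9.76 to 14.1% in ovaries and 12.6 to 30.8% in tumors, above in 9 of 10, and E2f8 held 3.20 to 4.58% and 3.70 to 8.67%, also above in 9 of 10. E2f3 held 13.5 to 15.4% in ovaries and less in 7 tumors. Across the families, E2f1 over Rb1 was 0.65, 0.73 and 0.48 in ovaries and 2.57 to 15.6 in tumors. The lowest tumor ratio belonged to MP tumor 2 and the highest to MP tumor 7, and no tumor overlapped the ovaries. By contrast, E2f1 over E2f4 overlapped, at 0.15 to 0.24 in ovaries and 0.22 to 0.71 in tumors. E2f1 over E2f3 also overlapped, at 0.71 to 1.05 and 0.79 to 3.43. Each of these lay above all ovaries in 8 of 10 tumors.

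**Figure D4:**
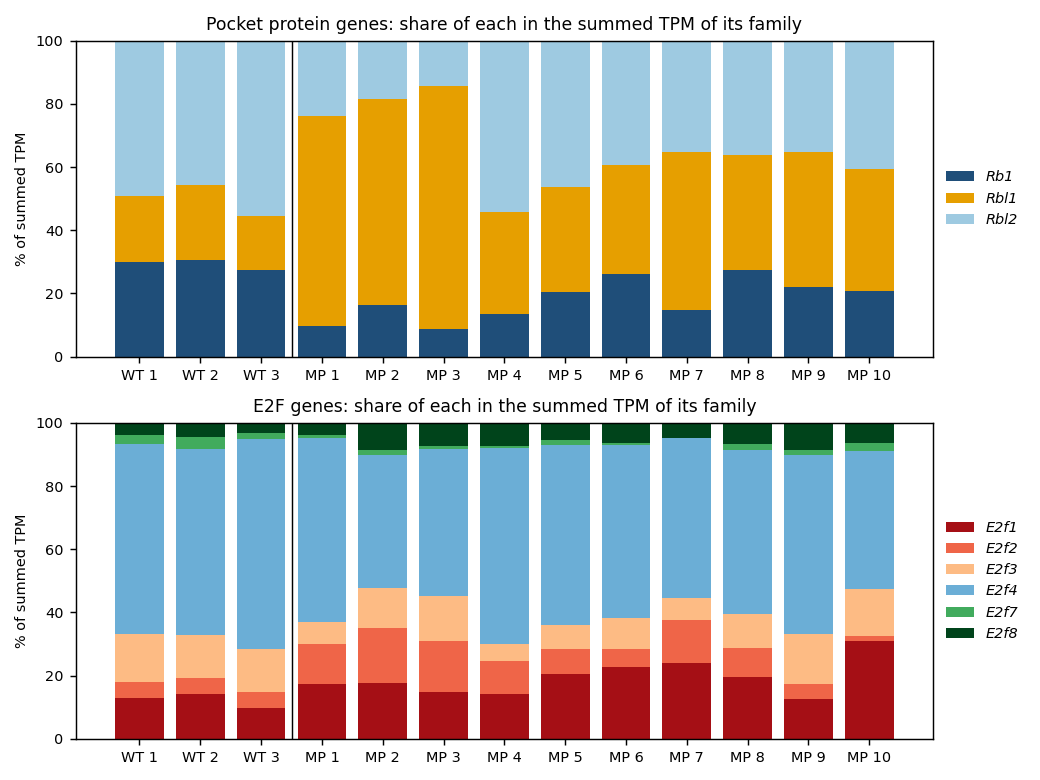
Share (%) of each gene in the summed TPM of the 3 pocket genes (top) and the 6 E2F genes (bottom), with a bar for each library and a line between WT ovaries and MP tumors. The Rbl1 share is 17.3 to 23.8% in ovaries and 32.2 to 77.0% in tumors.

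The 14 partners of RB and E2F cover the remaining E2F and DP genes, the MuvB subunits, the MYB and FOXM1 factors and chromatin proteins that RB recruits. By limma 0 rose and 0 fell, their median log2 fold change was -0.10, 1 was lower and 0 higher at an unadjusted P value under 0.05, and limma-voom on reads called 4 higher and 0 lower. Of all genes, 27.4% were lower and 5.63% higher at that unadjusted P value, and 16% were higher and 17.5% lower by limma-voom. The repressors E2f5 and E2f6 were at -0.16 ± 0.32 (adjusted P = 0.742) and 0.01 ± 0.35 (adjusted P = 0.982), and Tfdp2, which encodes DP2, was at -0.46 ± 0.77 (adjusted P = 0.686). Among MuvB subunits, Lin9, Lin37, Lin54 and Rbbp4 lay between -0.40 and 0.34. Lin52, whose protein links MuvB to p107 and p130, was at 12.0 to 13.4 TPM in ovaries and 4.17 to 9.21 TPM in tumors, lower in all 10, with a log2 fold change of -0.84 ± 0.35 (adjusted P = 0.104). After scaling it was at -0.18 ± 0.34 (adjusted P = 0.733), with 3 tumors above and 6 below all ovaries. Mybl2, which encodes the MuvB partner of dividing cells, was at 4.76 to 8.01 TPM in ovaries and 2.97 to 56.7 TPM in tumors (1.34 ± 0.75, adjusted P = 0.220). The histone methyltransferase gene Suv39h1 was at 0.79 ± 0.46 (adjusted P = 0.237), and Mybl1, Foxm1, Hdac1 and Rbbp7 lay between -0.50 and 0.68. After scaling, Lin9 (0.95), Mybl2 (1.96) and Suv39h1 (1.48) were called higher, at adjusted P values of 0.0434, 0.0379 and 0.00177. Within project 1, 0 partners were higher and 5 lower as deposited, where 6.44% and 57.3% of all genes were called, and 9 higher and 2 lower after scaling, where 26.6% and 32.2% were.

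Of 17 regulators of RB phosphorylation, the cyclins, cyclin-dependent kinases and their inhibitors, 5 rose and 3 fell, which is 29.4% and 17.6% of the list beside 2.51% and 14.3% of all genes. Cdkn2a, which encodes the CDK4/6 inhibitor p16 and also p19ARF, was at 3.56, 2.59 and 3.98 TPM in ovaries and 124 to 914 TPM in tumors. It rose by 6.55 ± 0.50 on the log2 scale (adjusted P = 2.71e-07 by limma), and its row does not separate the transcripts of the 2 proteins. The G1/S cyclin gene Ccne1 rose from 5.24 to 8.11 TPM in ovaries to 11.4 to 106 TPM in tumors (2.39 ± 0.61, adjusted P = 0.0144), and the mitotic kinase gene Cdk1 from 36.6 to 69.2 to 76.1 to 293 TPM (1.56 ± 0.41, adjusted P = 0.0177). The other two that rose were Ccna2 and Ccne2. The inhibitor genes Cdkn2b (p15), Cdkn1b (p27) and Cdkn1a (p21, a p53 target) fell, with log2 fold changes of -4.20 ± 0.65, -1.81 ± 0.36 and -2.62 ± 0.78 (adjusted P = 0.000382, 0.00339 and 0.0327). After scaling, Cdkn2b alone of these 3 passed the threshold, with Cdkn1a at -1.93 (adjusted P = 0.0630) and Cdkn1b at -1.08 (adjusted P = 0.1101). Cdk1, Ccne1, Cdkn2a and Ccna2 passed again, Ccne2 did not (2.40, adjusted P = 0.0545), and Cdk4 (1.54, adjusted P = 0.0207) and Cdk2 (1.22, adjusted P = 0.0414) were also called higher. With that scaling 7.48% of all genes were called higher and 10.9% lower. Within project 1, 4 regulators were higher and 7 lower as deposited, where 6.44% and 57.3% of all genes were called. After scaling 8 were higher and 3 lower there, beside 26.6% and 32.2% of all genes. The other 9 regulators did not pass in the deposited TPM.

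Of 36 known E2F target genes for DNA replication, nucleotide supply and repair, 11 rose and 0 fell, with 0 lower at an unadjusted P value under 0.05 and 0 lower by limma-voom. That is 30.6% of the list beside 2.51% of all genes, and the median log2 fold change was 1.08 beside -0.58. The fold change was positive in 35 of 36, Dnmt1 (-0.22) being the exception. Gins2, a part of the replicative helicase, rose from 7.46 to 11.4 TPM in ovaries to 20.3 to 77.6 TPM in tumors (2.21 ± 0.42, adjusted P = 0.00229 by limma). Tk1, thymidine kinase, rose by 2.12 ± 0.42 (adjusted P = 0.00273), and Orc1, of the origin recognition complex, by 1.83 ± 0.41 (adjusted P = 0.00713). All 10 tumors lay above all ovaries for these 3 genes. After scaling 31 of 36 were called higher, with a median of 1.79, beside 7.48% of all genes called higher and 10.9% lower. Within project 1, 15 were higher and 1 lower as deposited (Dnmt1 at -1.44, adjusted P = 0.0102), and 33 higher and 0 lower after scaling. Of all genes, 6.44% were higher and 57.3% lower there as deposited, and 26.6% and 32.2% after scaling. Of 8 proliferation markers, 4 rose and 0 fell, with 0 lower at an unadjusted P value under 0.05 and 0 by limma-voom, among them Cdc20 (1.92 ± 0.46, adjusted P = 0.0110), Birc5 (1.56 ± 0.44, adjusted P = 0.0245) and Ccnb1 (1.65 ± 0.49, adjusted P = 0.0313). Those that rose are 50% of these markers, beside 2.51% of all genes higher and 14.3% lower. After scaling 7 were called higher, beside 7.48% of all genes. Within project 1, 3 were higher and 1 lower as deposited (Mki67 at -1.06, adjusted P = 0.0391), and 6 higher and 0 lower after scaling. The project 1 shares of all genes are those given for the targets. Without 1 WT ovary the genes called higher over the 4 lists dropped from 20 to 6, 9 and 3 (ovary 1, 2 or 3 left out).

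**Figure D5:**
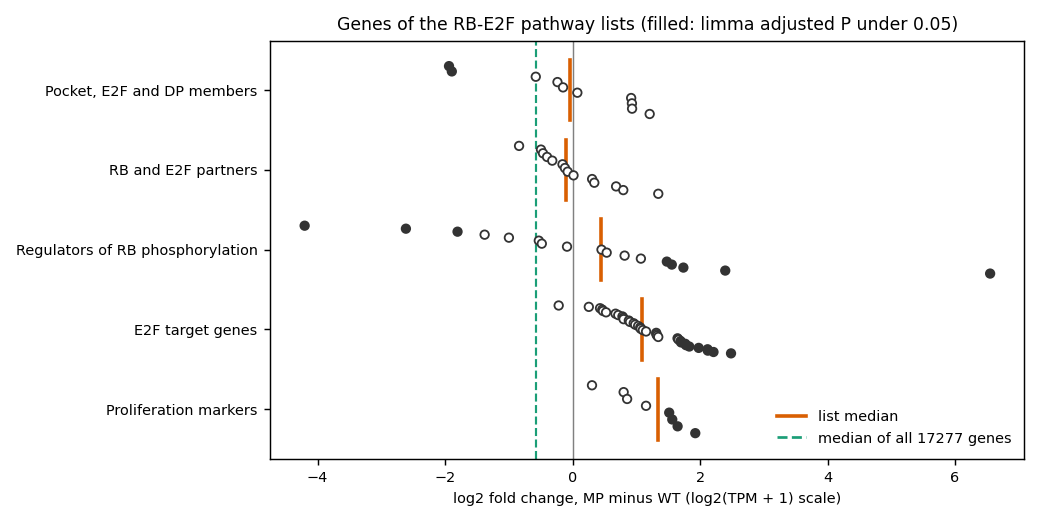
Log2 fold changes (MP minus WT, on log2(TPM + 1)) of the members and 4 pathway lists, with each point a gene, filled where the limma adjusted P value is under 0.05, orange bars for list medians and the dashed line for the median of all genes, -0.58. Of the E2F target genes 35 of 36 lie right of 0, with a median of 1.08.

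Markers of other cell types were measured alongside. Summed theca and luteal markers (6 genes) were at 25024 to 28131 TPM in WT ovaries and 7.44 to 824 TPM in tumors, and 4 of 6 fell, with Insl3 too low to be tested. Summed granulosa markers (6 genes) were at 3428 to 6341 TPM and 4.52 to 1509 TPM, with Fshr and Cyp19a1 at a median of 0 in tumors. Oocyte markers (8 genes) summed to 297 to 441.4 TPM and 1.83 to 23.6 TPM, and Zp1, Zp2, Bmp15, Oosp1 and Nlrp5 had a median of 0 in tumors. Smooth muscle (4 genes) and endothelial (4 genes) sums lay below all ovaries in 10 of 10 tumors, the stromal sum (5 genes) in 8, and the leukocyte sum (7 genes) in 4. Of the smooth muscle, endothelial and stromal markers, 3 of 4, 2 of 4 and 2 of 5 fell, and 3 of 6 epithelial markers fell. Of the 7 leukocyte markers 5 were tested and 0 fell. Cd3e, too low to be tested, lay below all ovaries in 10 of 10 tumors. Of the 8 marker lists 0 genes rose, with 0 higher at an unadjusted P value under 0.05 and 0 by limma-voom. Within project 1, 1 leukocyte marker was higher and 3 lower as deposited, and 2 higher and 0 lower after scaling. Of all genes, 6.44% were higher and 57.3% lower there as deposited, and 26.6% and 32.2% after scaling. Summed proliferation markers were at 226 to 467 TPM in ovaries and 356 to 1410 TPM in tumors, above all ovaries in 8 of 10. The part of each in the members' values was not tested.

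Among 8829 genes with a mean of at least 10 TPM in tumors, those most like a member over the 10 tumors were sought by Pearson's r of log2(TPM + 1), as a description. Nearest to Rb1 were Rbfox2 (r = 0.994), Sbno1 (0.988) and Tbc1d2b (0.986). For Rbl1 they were Cdk17 (0.904), Lsm14a (0.902) and Tmed7 (0.898), a looser match than for the other members searched. For E2f1 they were Taf15 (0.987), Gid4 (0.986) and Kpnb1 (0.980), and for E2f4 Cox18 (0.993), Fbxl6 (0.989) and Kif22 (0.989). All genes of a library share its scaling, whose median-of-ratios factor ran from 0.316 in MP tumor 2 to 1.46 in MP tumor 9.

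The neighbours of Rb1 were also examined. Over the 12 genes tested within 2000000 bases of Rb1, the median log2 fold change was -0.60, beside -0.60 over the 578 genes tested on chromosome 14, and 2 of the 12 were called lower. Rbl2, with 17 neighbours at a median of -0.89 and 1 called lower, lay on chromosome 8 at a median of -0.49 over 911 genes.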

How the data were processed

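RNA-seq was made from bulk tissue of 3 WT ovaries and 10 MP tumors with polyA selection and single-end reads of 76 bp. The authors deposited TPM values per gene and library, with gene length. The submitters' processing notes name FastQC 0.11.5, Trimmomatic 0.36, STAR 2.5.3a, featureCounts 1.6.3 and GRCm38, whereas the protocol text names hg19, HTSeq and RPKM; the table holds mouse genes, and 96.0% of them have the start and end of GENCODE M21. Each library's TPM adds up to 1000000, and a gene's value drops when others take a larger share. TPM times length gave whole reads for 100% of values (tolerance 0.01), which set the depth. Pairs of libraries of 1 group differed by more than sampling noise.

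The members and lists were chosen with earlier results of these data known. Tests used limma 3.58.1 (trended, robust) in R 4.3.3 on log2(TPM + 1), which understates changes of low genes, for genes reaching 1 TPM or more in 3 or more libraries, with Benjamini-Hochberg adjustment and a threshold of 0.05. Named genes were all members, all partners, up to 3 genes a direction with the largest moderated statistic from each other list, and the 3 genes most like each of Rb1, Rbl1, E2f1 and E2f4. Overlapping and neighbouring genes, Ccna2, Ccne2, Cdk2, Cdk4, Dnmt1 and Mki67, the epithelial markers, Cd3e, and markers at 0 were named after their values were seen. Alternatives varied pseudocount, filter, scaling, method, project, block and single libraries, and 3 of them were chosen after seeing the data: project 1 with scaling, tumors of projects 2 and 3 alone, and scaling without MP tumor 2. On data simulated for MP against WT over 16911 genes, limma recovered 28 of 100 genes changed 2-fold and 100 of 100 changed 4-fold, with 5 false calls. The simulation gave all genes the same spread beyond counting noise and held no differences of project or scaling. These rates therefore cannot be carried over to the real libraries. No column of other samples was present. Python 3.11.15, pandas 2.3.3 and matplotlib 3.10.9 made the tables and figures.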

Additional observations from a re-analysis of the deposited data

Results flagged for a closer look

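Trp53, the edited gene, was at 187 TPM in MP tumor 10, far from the other 9 tumors, of which the next highest was at 26.0 TPM. The gap was 0.881 of the range over the 10 tumors, above Dixon's 95% limit for 10 samples. Of the 10 members none had a tumor this far from the others, with the largest such gap at 0.399 for Rbl1 in MP tumor 9. Chance marks about 1 in 20 groups. Rb1 in MP tumor 10 was at 10.2 TPM and E2f1 at 81.5 TPM, the highest E2f1 value of the tumors.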

How the results depend on the processing

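Of 28 alternatives, Rb1 stayed negative in 28 and called in 25 (log2 fold change -3.05 to -1.10, adjusted P 5.74e-06 to 0.117), and Rbl2 negative in 28 and called in 16 (-3.28 to -0.997, adjusted P 6.77e-06 to 0.163). Rbl2 alone lost its call, leaving 1 member lower, with a pseudocount of 0.1 or 0.5, with no filter and with the stricter filter. Members called higher went from 0 to 4 with median-of-ratios scaling, quantile normalization and limma-voom, to 3 with length trends removed, to 4 in project 1 with scaling and in scaling without MP tumor 2, and to 3 in tumors of projects 2 and 3 alone. Members called lower went from 2 to 4 with project as covariate, and to 5 in project 1. All WT ovaries are in project 1, so these fits and the replicate block give each member the same estimate. They are not independent alternatives. List genes called higher went from 20 to 47, 48, 48 and 49 with median-of-ratios scaling, quantile normalization, length trends removed and limma-voom, to 56 in project 1 with scaling and to 42 in scaling without MP tumor 2. List genes called lower went from 3 to 1 with scaling, to 11 with project as covariate, to 14 in project 1, to 5 there with scaling and to 1 in scaling without MP tumor 2. The cause of these shifts was not tested. Leaving out 1 library in turn gave 0 to 1 members higher, 0 to 2 lower, and 3 to 25 list genes higher. Over all genes, calls ranged from 94 to 4594 higher and from 900 to 9902 lower.

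The direction turned for Rbl1 (0.44, 0.64, 0.58, 0.48) and E2f3 (0.50, 0.74, 0.63, 0.61) with median-of-ratios scaling, quantile normalization, length trends removed and limma-voom, for both in project 1 with scaling (1.09 and 0.014) and in scaling without MP tumor 2 (0.37 and 0.56), and for E2f3 in tumors of projects 2 and 3 (0.40) and without MP tumor 2 (0.046, with -0.32 as the lowest value when 1 tumor was left out). E2f7 turned with quantile normalization (0.16) and length trends removed (0.38). E2f1, E2f4 and E2f8 turned with project as covariate and in project 1 (-0.67, -1.51 and -0.43), and E2f4 without MP tumor 6, 7, 8 or 9 (-0.047 to -0.012, with 0.36 as the highest value when 1 tumor was left out).

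Replicate numbers 1 to 3 are shared by ovaries and tumors of different mice. Deviations of same-numbered libraries correlated at -0.096, -0.021 and 0.001, so the numbers do not pair them. With the replicate block, fitted in project 1, 5 members and 12 list genes were lower, and E2f1, E2f4 and E2f8 were at -0.67, -1.51 and -0.43.

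Depth limits E2f7 most, with 6 to 432 reads a library. WT ovaries came from project 1 alone, and 3 of them set the WT spread.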
